A study of Homo sapiens and Mus musculus with 6 samples.

Results

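Among the contacts that Promoter Capture Hi-C (Promoter CHi-C) listed in mouse embryonic stem cells (mESCs), a small set joined fragments of the same chromosome at very long range, and this set is described here. Lines of the mESC list were read as bait and other end. Fragment pairs on the same chromosome whose midpoints lay 10 Mb or more apart were kept, and each pair was counted once. The rule left 533 fragment pairs, made of 694 calls, out of 94150 fragment pairs in the mESC list. Of the rest, 90710 pairs spanned under 1 Mb, 2356 spanned 1 to 10 Mb and 551 joined different chromosomes.

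In Promoter CHi-C, HindIII fragments that carry promoters ("baits") are pulled out of a Hi-C library with RNA probes, and each read pair then joins a bait to an "other end", which may be a bait as well. The data came from 2 biological replicates of CHi-C and 1 Hi-C library, all of the J1 mESC line (strain 129S4/SvJae), for which the labels name no treatment or mutation. The line was grown on feeder cells, which were removed by passaging before fixation with formaldehyde. Interactions were called by CHiCAGO on both CHi-C replicates together, so each pair has a single read count and a single score, no spread between replicates can be given and no test over samples was possible. Expression was not measured, so the cell type could not be checked against marker genes.

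Many promoters of developmental regulators in mESCs are held silent by the Polycomb complexes, which bind CpG-rich DNA. Polycomb repressive complex 1 includes a chromodomain subunit of the Cbx family that reads a methylation mark on histone H3, and such complexes are known to gather distant silenced genes in the nucleus. The Hox genes, homeobox genes arranged in 4 clusters on as many chromosomes, pattern the body axis and are among the best-known Polycomb targets.

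The contacts of 10 Mb or more involved 432 fragments, of which 240 were baited and 192 were not. Distances ran from 10.21 to 118.9 Mb with a median of 22.79 Mb. The median read count, which is combined over replicates and rounded, was 4 (range 3 to 20), and 290 of the 533 pairs rested on 3 to 4 reads. The CHiCAGO score grows as the weighted p-value of a contact falls, and contacts were listed from a score of 5. It had a median of 9.13 (range 5.03 to 87.3). A score of 10 or more was reached by 225 pairs. Single pairs on so few reads carry wide counting error, so the account below leans on loci that recur over many fragments.

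The promoters that follow belong to well-connected baited genes on each of the 5 chromosomes with most contacts (Cbx8, Dlx5, Tbx3, Tcfap2b and Lhx2) and to U2.22, which had 18 partners. Each sequence is the 250 bases before the transcription start in mm9 (NCBIM37) with the start taken from GENCODE vM1, read 5′ to 3′ on the gene's strand, with every CG dinucleotide in capitals.
Cbx8: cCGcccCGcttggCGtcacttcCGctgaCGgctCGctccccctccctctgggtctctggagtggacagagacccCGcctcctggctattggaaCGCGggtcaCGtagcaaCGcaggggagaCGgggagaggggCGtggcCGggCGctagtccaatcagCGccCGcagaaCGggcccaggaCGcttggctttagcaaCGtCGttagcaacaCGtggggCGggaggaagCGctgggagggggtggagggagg
Dlx5: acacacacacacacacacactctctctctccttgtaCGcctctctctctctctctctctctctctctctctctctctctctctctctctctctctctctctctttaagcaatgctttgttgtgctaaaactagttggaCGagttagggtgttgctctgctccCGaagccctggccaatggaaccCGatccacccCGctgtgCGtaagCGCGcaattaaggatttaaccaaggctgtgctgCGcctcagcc
Tbx3: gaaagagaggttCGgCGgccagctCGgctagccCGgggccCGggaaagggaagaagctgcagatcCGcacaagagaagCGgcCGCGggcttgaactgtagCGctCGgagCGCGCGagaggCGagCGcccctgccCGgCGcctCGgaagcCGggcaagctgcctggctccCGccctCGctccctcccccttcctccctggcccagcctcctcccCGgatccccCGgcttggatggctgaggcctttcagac
Tcfap2b: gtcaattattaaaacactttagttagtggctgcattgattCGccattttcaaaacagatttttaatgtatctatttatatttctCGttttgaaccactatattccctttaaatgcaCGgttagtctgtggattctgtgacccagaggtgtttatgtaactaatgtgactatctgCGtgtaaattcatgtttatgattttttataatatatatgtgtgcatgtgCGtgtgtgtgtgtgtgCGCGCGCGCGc
Lhx2: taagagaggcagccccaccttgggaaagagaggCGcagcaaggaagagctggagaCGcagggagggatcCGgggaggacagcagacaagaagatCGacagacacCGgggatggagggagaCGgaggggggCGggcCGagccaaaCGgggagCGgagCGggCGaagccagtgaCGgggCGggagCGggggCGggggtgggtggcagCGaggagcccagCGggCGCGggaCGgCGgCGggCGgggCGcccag
U2.22: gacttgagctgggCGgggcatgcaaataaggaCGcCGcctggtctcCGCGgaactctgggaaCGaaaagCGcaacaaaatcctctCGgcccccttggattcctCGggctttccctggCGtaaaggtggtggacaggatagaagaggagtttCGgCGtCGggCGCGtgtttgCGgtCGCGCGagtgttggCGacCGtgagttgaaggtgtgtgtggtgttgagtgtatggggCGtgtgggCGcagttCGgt
The windows lie at chr11:118902284-118902533 (minus strand) for Cbx8, chr6:6832086-6832335 (minus strand) for Dlx5, chr5:120120428-120120677 (plus strand) for Tbx3, chr1:19198745-19198994 (plus strand) for Tcfap2b, chr2:38194551-38194800 (plus strand) for Lhx2 and chr11:101519302-101519551 (plus strand) for U2.22. None of them overlaps an annotated exon. They held 24 (Cbx8), 9 (Dlx5), 24 (Tbx3), 10 (Tcfap2b), 25 (Lhx2) and 24 (U2.22) CG dinucleotides, against a median of 5 over the same window of 34352 annotated genes. As many CG as in the Lhx2 window were found in 9.205% of all windows, and as many as in Cbx8, Tbx3 or U2.22 in 10.32%. The Tcfap2b and Dlx5 windows were nearer the middle of all genes, since 35.31% and 37.82% of windows had as many CG. That of Dlx5 holds long CT and CA repeats.

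The fragments were also compared by CpG content. Baited fragments in contacts of 10 Mb or more had a median CpG observed-over-expected ratio of 0.491 and a median GC content of 52.44%, against 0.2992 and 47.62% for baited fragments in contacts under 1 Mb. Contacts of 1 to 10 Mb were intermediate, at 0.4136 and 50.13%. Baited fragments of trans contacts were the lowest, at 0.2718 and 47.01%. The unbaited fragments followed the same order, with median CpG ratios of 0.3576 at 10 Mb or more, 0.2441 at 1 to 10 Mb, 0.2023 under 1 Mb and 0.1724 in trans. Baits of developmental genes with a contact of 10 Mb or more had a median CpG ratio of 0.5552, against 0.4393 for baits of the same gene lists without such a contact. These medians are descriptive, since neighbouring fragments share sequence composition and many fragments take part in several pairs.

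Genes that encode transcription factors of development occupied the ends of these contacts. A gene of 9 developmental lists (Hox, other homeobox, forkhead, T-box, Sox, Gata/Hand/Tal, neural bHLH, Zic/Gli/Osr and secreted ligands) was named at an end of 286 of the 533 pairs, or 53.66% (95% Wilson interval 49.41 to 57.85). The share was 27.93% (26.15 to 29.78) for contacts of 1 to 10 Mb, 4.738% (4.602 to 4.878) for those under 1 Mb and 2.178% (1.25 to 3.768) in trans. Both ends carried such a gene in 6.004% (4.285 to 8.353) of pairs at 10 Mb or more. This share was 2.886% (2.283 to 3.643) at 1 to 10 Mb and 0.2017% (0.1746 to 0.2331) under 1 Mb. Only pairs with a bait at both ends can count towards it. A Hox list gene, which here includes the cluster-adjacent Evx1 and Evx2, was at an end of 107 pairs, or 20.08% (16.89 to 23.68), against 4.457% (3.695 to 5.367) at 1 to 10 Mb and 1.307% (1.236 to 1.383) under 1 Mb. The intervals cover counting error only, and pairs that share a fragment are not independent.

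**Figure D1:**
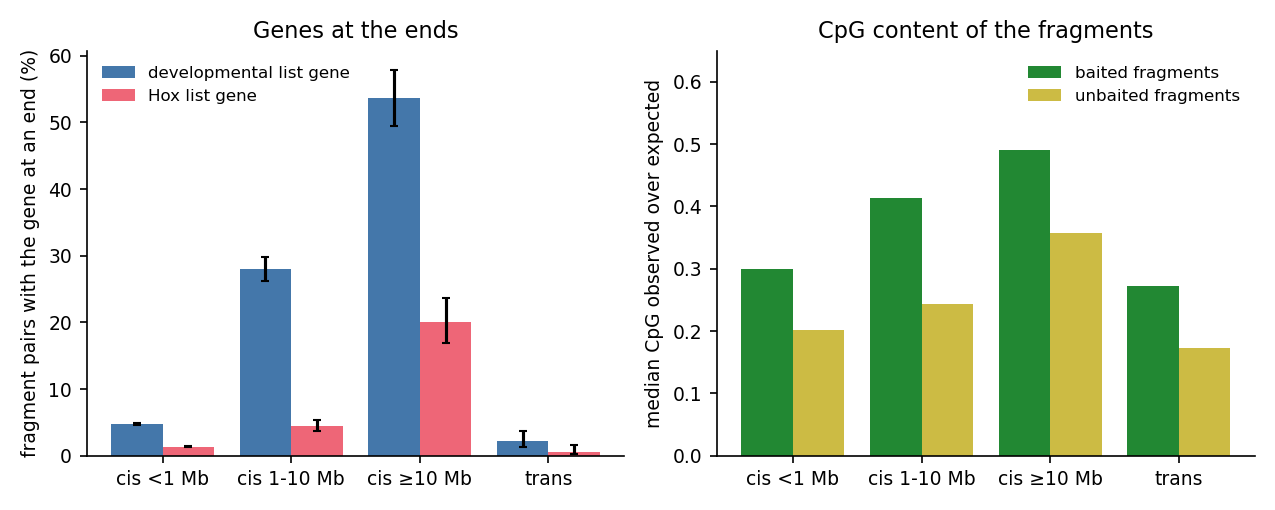
Left, share of fragment pairs with a gene of the developmental lists (blue) or a Hox list gene (red) at an end, in %, by distance class, with 95% Wilson intervals. Right, median CpG observed-over-expected ratio of the baited (green) and unbaited (yellow) fragments in each class. Both panels peak in the class of 10 Mb or more, at 53.66% and 20.08% on the left and at 0.491 and 0.3576 on the right.

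Within the long-range set the developmental share was also counted by distance. The 171 pairs between 10 and 20 Mb had it in 45.03% of cases, and the 183 pairs between 20 and 30 Mb in 61.75%. The share was 56.79% over the 81 pairs from 30 to 40 Mb, 60% over the 55 pairs from 40 to 50 Mb and 48.28% over the 29 pairs from 50 to 80 Mb. Single contacts weigh on these values: without the contact of U1/U3/U6 and U2 genes described below, the share between 10 and 20 Mb was 64.71% of 119 pairs (55.78 to 72.71), and without the Hoxb and Cbx contact that between 20 and 30 Mb was 59.77% of 87 (49.26 to 69.45). Both were left out after seeing the data. Of the 14 pairs beyond 80 Mb 3 had such a gene, which is 21.43% with a wide interval of 7.571 to 47.59. The median score did not fall steadily with distance: it was 8.31, 9.82, 10.86 and 7.78 in the 4 classes up to 50 Mb and 8.04 above that.

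Counted by bait, 240 of the 17157 baited fragments with any call in mESCs had a contact of 10 Mb or more, which is 1.40% of them. Hox baits stood far above this background, with 25 of 33 (75.76%, Wilson interval 58.98 to 87.17). Those 25 lie at the Hoxa, Hoxb and Hoxd clusters, where neighbouring baits share partners. The intervals by bait treat baits as independent, so they are too narrow for clustered genes. Among the other developmental lists, Zic, Gli and Osr baits had 4 of 8 (50%, 21.52 to 78.48), T-box baits 7 of 15 (46.67%, 24.81 to 69.88), homeobox baits outside the Hox clusters 38 of 117 (32.48%, 24.67 to 41.4) and forkhead baits 8 of 35 (22.86%, 12.07 to 39.02). Over all 9 developmental lists, 91 of 319 baits had such a contact (28.53%, 23.85 to 33.71), and they made up 37.92% of the 240 baits. The other 149 baits belonged to none of these lists.

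The developmental families differed in how far they stood out, and the secreted ligands did not. Genes of secreted ligands (Wnt, Fgf, Bmp, Gdf and Hedgehog) had 1 bait of 53, Wnt6, which is 1.887% (0.3338 to 9.943) and close to the background, although 28.3% of these baits had a contact of 1 to 10 Mb. Sox baits had 2 of 17 (11.76%, 3.288 to 34.34), Sox17 and Sox14, and neural bHLH baits had 4 of 32 (12.5%, 4.97 to 28.07). Both intervals lie above the background, though each rests on few baits. Pluripotency factor genes had 1 of 20 (5%, 0.8881 to 23.61), an interval that includes the background. That one was Tbx3, which also counts as a T-box gene. Genes of the Polycomb complexes themselves had 3 of 27 (11.11%, 3.852 to 28.06), among them Cbx2 and Cbx8, which are neighbours on chromosome 11. AP-2 baits had 3 of 5 (60%, 23.07 to 88.24), namely Tcfap2a and, within a single locus, Tcfap2b and Tcfap2d. The AP-2 list was made after the values were seen, so its share is descriptive and cannot be set against the background.

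Among other gene families, olfactory and vomeronasal receptor baits had 0 of 580, which allows a share of up to 0.5172% and lies under the background. Replication-dependent histone baits had 0 of 35, which allows up to 8.571%, so they cannot be placed against it. The histone genes were otherwise rich in distant contacts: 71.43% of their baits had a contact of 1 to 10 Mb, against 7.198% of all baits, and 28 of the 35 lie on chromosome 13. Cytosolic ribosomal protein baits had 1 of 82, Zfp zinc finger baits 3 of 226 and microRNA baits 6 of 220, which is 1.22% (0.2156 to 6.589), 1.327% (0.4525 to 3.829) and 2.727% (1.256 to 5.821). All 3 intervals include the background. Clustered protocadherin baits had 0 of 20, too few to set against the background. Small nuclear and nucleolar RNA baits had 13 of 1218 (1.067%, 0.6248 to 1.818), an interval that includes the background as well, and 8 of the 13 lie in a single contact on chromosome 11 described below.

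**Figure D2:**
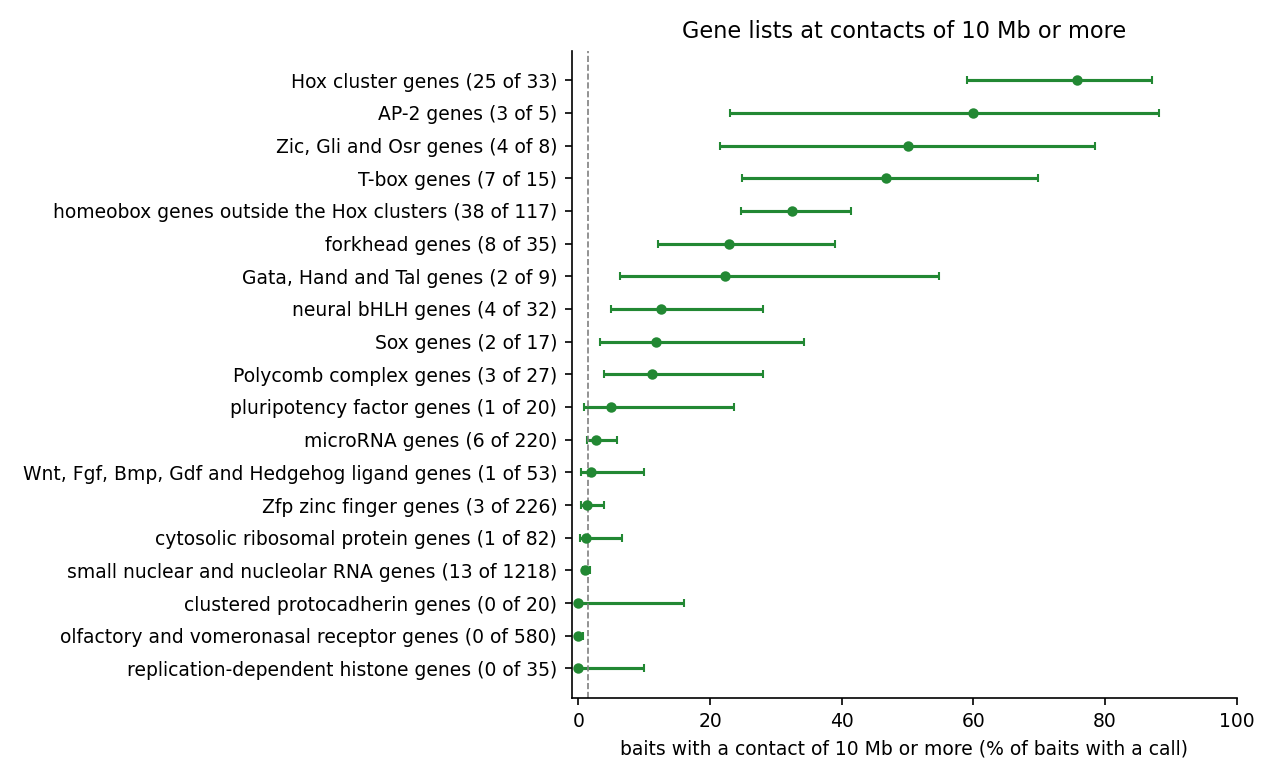
Share of baits with a call that had a contact of 10 Mb or more, in %, for each gene list, with the counts beside each name. The 95% Wilson intervals treat baits as independent, though baits of a cluster share partners. The AP-2 and small nuclear RNA lists were made after the values were seen. The dashed line marks the 1.40% of all baits, and the Hox list lies highest at 75.76%, while the olfactory and histone lists lie at 0.

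Fragments less than 500 kb from the next were joined into loci, which gave 176 loci and 157 pairs of loci. Of these locus pairs 91 rested on a single fragment pair, 17 held 5 or more and 10 held 10 or more. Those 10 together held 272 fragment pairs, 51.03% of the total. The locus pairs are taken in turn below, with the number of Hi-C read pairs between the same 1-Mb bins as a second reading.

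The largest contact joined the Hoxb cluster to the Cbx2 and Cbx8 locus, 22.76 Mb away (median) on chromosome 11. It comprised 96 fragment pairs among 29 fragments on the Hoxb side and 14 on the Cbx side, with 625 reads in all. Of the 241 combinations of these fragments that include a bait, 39.83% were called. Both ends were baited in 26 pairs, out of 42 possible, and each of the 26 was called from both ends. Cbx8 had 14 partners and Cbx2 had 7.

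The read counts between Cbx8 and the baits along the Hoxb cluster were 9 for Hoxb9, 8 for Hoxb8, 11 for Hoxb7, 10 for Hoxb6, 8 for Hoxb3, 7 for Gm11536, 9 for Hoxb2 and 7 for Hoxb3os. Cbx8 was thus called with 8 baits of the cluster region, with Hoxb7 at the highest score of these, 30.58, and was not called with Hoxb5, Hoxb4 or Hoxb13. Cbx2 was called with 5 baits, on 5 reads each with Hoxb9, Hoxb6, Hoxb5 and Hoxb3 and on 6 with 0610040B09Rik. Hoxb9, Hoxb6 and Hoxb3 were called with both genes. Hoxb1, at the end of the cluster, had other calls but none of 10 Mb or more. Read counts were not divided by fragment length or by how well each bait was captured, so they do not rank the genes by contact strength. The score uses bias factors estimated for baits and for pools of other ends, without a separate term for fragment length.

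**Figure D3:**
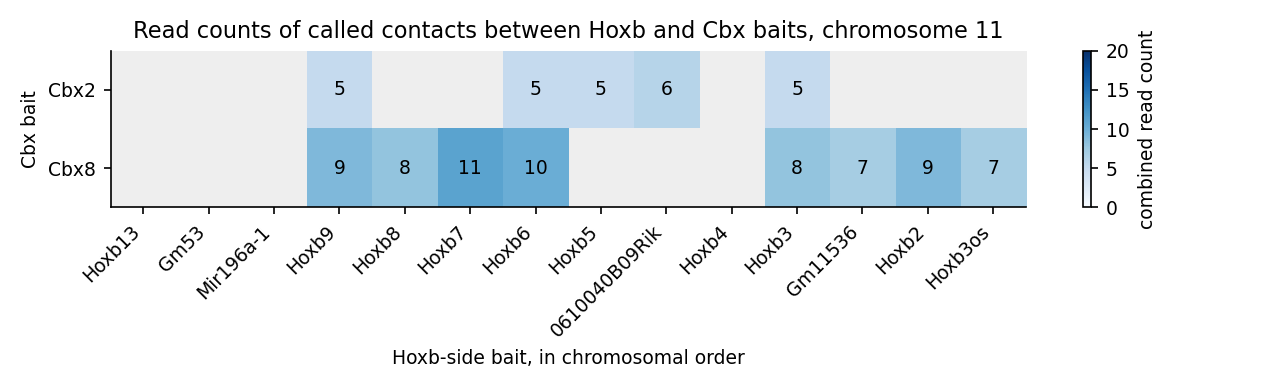
Combined read count of each called contact between 14 baits at the Hoxb cluster (columns, in chromosomal order) and the Cbx2 and Cbx8 baits (rows). Grey cells had no call. The Cbx8 row holds 8 calls on 7 to 11 reads, and the Cbx2 row holds 5 calls on 5 or 6 reads.

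From the 191.5 kb of the Hoxb side, 3 other genes were reached at 10 Mb or more, each on few reads. Lhx1, a LIM-homeobox gene of kidney and head development, had 3 fragment pairs at 11.85 Mb and Tbx2 had 3 at 10.56 Mb. Gm11772 had a single pair with Hoxb3 on 5 reads. Lhx1 was also paired with the Cbx locus (2 fragment pairs at 34.59 Mb), so that Hoxb, Cbx and Lhx1 were mutually linked in the CHi-C calls. Neither contact of Lhx1 lay in a listed Hi-C bin pair.

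Hox clusters differed in whether they took part at all. All 8 Hoxa baits and all 6 Hoxd baits with a call had a contact of 10 Mb or more, as had 9 of 10 Hoxb baits. None of the 7 Hoxc baits had one, which with so few baits allows a share of up to 42.86%. Hoxa genes were in 24 pairs, Hoxb genes in 66 and Hoxd genes in 12, counting pairs with the Hox bait itself.

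The Hoxa cluster and its neighbour Evx1 contacted a locus 31.49 Mb away on chromosome 6, called the Vax2os1 locus here. Vax2os1 is a non-coding gene transcribed opposite the eye-field homeobox gene Vax2. The 34 fragment pairs joined 14 fragments on the Hoxa side, 13 of them baited, to 5 fragments at this locus, of which 1 was baited. That baited fragment overlaps transcription starts of both Vax2 and Vax2os1. Among combinations with a bait 51.52% were called. The 2 unbaited fragments at chr6:83651037-83652404 and chr6:83652405-83654264 (mm9) had 12 partners each. The former overlaps an exon of Vax2os1 and the latter its transcription start.

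Along the cluster, the former fragment was read 8 times with Hoxa2, 13 with 2700086A05Rik, 7 with Hoxa4, 4 with Hoxa5, 12 with Hoxa6, 4 with Hoxa3, 11 with Mir196b, 4 with Hoxa10, 19 with Hoxa11as and 5 with Evx1. The pair with Hoxa11as had the second-highest score of the set, 83.16. Hoxa13, at the far end of the cluster, was called only with the neighbouring fragment, on 3 reads. Contacts ran along the cluster and were not restricted to one end of it.

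A second partner of the Hoxa cluster was the Dlx5/Dlx6 locus, which holds homeobox genes of the face, limb and forebrain, 45.36 Mb away. This contact had 12 fragment pairs on 3 to 7 reads, and in 7 of them both ends were baited and called from both ends. The Dlx5/Dlx6 locus had the most partner loci of all, 7. They included Fezf1, a zinc finger gene of the forebrain (11 fragment pairs at 16.38 Mb, 4 to 9 reads), A930038C07Rik (7 pairs at 58.79 Mb, 3 to 8 reads), Zfp467 (2 pairs at 41.58 Mb), Fam190a (2 pairs at 54.31 Mb), the proneural gene Atoh1 (2 pairs at 57.87 Mb) and Grm8, a glutamate receptor gene (1 pair at 21.27 Mb). The fragment with most partners there, 12, is listed under the name uce and overlaps the transcription starts of Dlx6 and Dlx6os1. Fezf1 and Hoxa were joined as well, by 3 fragment pairs at 28.96 Mb, which closes a triangle of the 3 loci.

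The partners of the Hoxd cluster on chromosome 2 included LIM-homeobox genes and a paired-box gene. Lmx1b, needed for dorsal limb identity, was joined to it by 13 fragment pairs at 41.03 Mb on 3 to 6 reads. Lhx2, a gene of the eye and forebrain, was joined by 5 pairs at 36.33 Mb on 3 to 5 reads, with Hoxd3, Hoxd10 and Hoxd12 among its partners. Pax6, the eye and brain paired-box gene, lies on the other side and was joined by 4 pairs at 30.97 Mb. Lmx1b and Lhx2 lie too close together for a pair of 10 Mb. Of their 4 partner loci each they had 3 in common: the Hoxd cluster, the Dlx1 locus and Gm13330. This share of 75% in both directions was the highest among the most connected loci compared.

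Chromosome 5 held a further homeobox hub. Uncx, a paired-type homeobox gene of the somites, was joined to the T-box genes Tbx3 and Tbx5 by 18 fragment pairs at 19.9 Mb and to the LIM-homeobox gene Lhx5 by 12 pairs at 19.14 Mb. Tbx3 was read 7 times with the fragment just before Uncx, 14 times with the Uncx bait and 5 to 19 times with 5 of the unbaited fragments after it. Lhx5 was read 17 and 18 times with those baits and 4 to 19 times with 7 unbaited fragments. Tbx5 was called on only 4 or 5 reads with 4 of these fragments. Tbx3 and Lhx5 thus had high counts over the same run of fragments at Uncx.
Tbx3 also had contacts with Barhl2 (13.23 Mb), Pdx1, the pancreatic homeobox gene (27.98 Mb), Msx1 (81.9 Mb) and others, 6 partner loci in all. All 14 loci and 52 fragment pairs of chromosome 5 formed a single connected network, the largest of the set, with no triangle in it.

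On chromosome 1, several genes of developmental transcription factors were linked to each other. A locus held Tcfap2b, which encodes an AP-2 factor, with Tcfap2d and Gm15825. It was joined to the locus of Pou3f3, a POU-domain gene of the brain, by 11 pairs at 23.57 Mb on 4 to 10 reads. Pou3f3 and Pax3, a gene of the neural crest and muscle, had a single pair at 35.44 Mb on 5 reads. Sox17 was paired with Tcfap2b, Tcfap2d and Gm15825 of the first locus (3 pairs, median 14.61 Mb, up to 9 reads). En1, a homeobox gene of the midbrain, was paired with Lhx9 (3 pairs at 18.24 Mb on 4 or 5 reads). This chromosome had 5 of the 14 triangles in the whole set. Smaller networks that held developmental genes were seen on other chromosomes. On chromosome 9, Tbx18, Eomes, Foxb1, Zic1, Foxl2, Sox14 and Onecut1 were interlinked in a network of 15 pairs, with 3 triangles on this chromosome. A network of 14 pairs on chromosome 13 held Nrn1, Barx1, Irx2, Otp, Tcfap2a and Pitx1. On chromosome 18, Prdm6 had 13 pairs with 5 loci, among them Gata6, Pou4f3 and Onecut2.

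On chromosome 4, the contact of 13 fragment pairs at 25.65 Mb involved unbaited fragments at and near Cdkn2a. This gene encodes cell cycle inhibitors silenced by Polycomb in many cells. The other locus held the forkhead genes Foxd2 and Foxe3 and the blood regulator Tal1. The reads ran from 4 to 7 and none of the 13 pairs had baits at both ends. Cdkn2c, another cell cycle inhibitor gene, was paired with the same Cdkn2a locus by 3 pairs at 20.42 Mb. Of their fragments there, 1 overlaps an exon of Cdkn2a and the others are intergenic.

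The contact with the second-highest number of fragment pairs did not involve developmental genes. On chromosome 11, a locus with genes of the spliceosomal RNAs U1 and U6 and the nucleolar RNA U3, next to Rad51c and Tex14, was joined to a locus of U2 genes, next to Rdm1, Arl4d and Dhx8, 14.25 Mb away. The contact had 52 fragment pairs and 294 reads over 19 and 13 fragments, and 28.57% of the combinations with a bait were called. Of 48 possible pairs of baits 29 were called.

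U2.22 had 18 partners, all in the other locus. It was read 5 times with Rad51c, 9 with U1.113, 15 with U1.112, 10 with U3.10, 20 with U6.660 and 13 with U3.7. All 6 baits on the other side were called with it, and U6.660 with U2.22 had the highest read count and the highest score, 87.3, of all 533 pairs. The next U2 baits, U2.20 and U2.4, were read 3 to 7 times each with the baits they were called with. The fragments of this contact were lower in CpG than those of the Hoxb and Cbx contact: their median CpG ratio was 0.2484 and their median GC content 44.87%, against 0.4076 and 51.36%. The U2.22 promoter window printed above, by contrast, holds as many CG as that of Tbx3.
Genes for small nuclear RNAs exist in near-identical copies, so reads can be placed at the wrong copy. A stretch of at least 100 bp at 95% identity or more was shared between the ends in 5 of these 52 pairs and in 6 of all 533. The pair of U6.660 and U2.22 shared none. Whether misplaced reads contribute to the other pairs was not tested.

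Hi-C bins of 1 Mb gave a second reading, from a library that had not been enriched for promoters. Since it was made before capture, it may share material with the CHi-C libraries. Of all pairs of bins on the same chromosome 10 Mb or more apart, 11316 of 146035 were listed with an FDR under 0.05, which is 7.75%. Of the 533 fragment pairs, 438 lay in such a bin pair, or 82.18% (78.7 to 85.19). The 7.75% covers all distances from 10 Mb up and bins with or without baits. It is thus not matched to the fragment pairs for distance or bait content. Many fragment pairs fall into the same bins: over the 163 distinct bin pairs the count was 102, or 62.58%. Locus pairs with a single fragment pair were covered in 52 of 91 cases (57.14%, 46.89 to 66.82) and those with 5 or more in 16 of 17 (94.12%, 73.02 to 98.95).

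For the Hoxb and Cbx contact, Hi-C counted 1213 read pairs over 2 bin pairs where 294.9 were expected from coverage and distance, a ratio of 4.113 (95% exact Poisson interval 3.885 to 4.351). The contact of the U1/U3/U6 and U2 loci had 978 read pairs against 142.8, a ratio of 6.851 (6.428 to 7.294). The Hoxa and Vax2os1 contact had 423 against 117.4 (3.603, 3.267 to 3.963). Tbx3, Tbx5 and Lhx5 fall into the same bin, which had 412 read pairs with the Uncx bin against 113.7 (3.625, 3.283 to 3.992). The ratio was 2.402 for Lmx1b and Hoxd, 2.407 for Cdkn2a and Foxd2, 2.075 for Dlx5/Dlx6 and Hoxa, 1.919 for Tcfap2b and Pou3f3 and 1.695 for Dlx5/Dlx6 and Fezf1. Some contacts named above lay in no listed bin pair and so have no ratio. They include Lhx1 with Hoxb and with Cbx, Fezf1 with Hoxa, and Dlx5/Dlx6 with Zfp467 and with Grm8. Pou3f3 with Pax3, En1 with Lhx9, and Tbx3 with Barhl2 and with Pdx1 also had none.
Contacts with fewer fragment pairs were not always weaker in Hi-C. Dlx5/Dlx6 and A930038C07Rik, with 7 fragment pairs, had a ratio of 6.273 (5.687 to 6.904), and Gm1992 with the Hjurp locus on chromosome 1, with 4 fragment pairs on 3 or 4 reads over 86.85 Mb, had the highest, 9.051 (8.065 to 10.12). Over the 102 bin pairs the median ratio was 2.106, against 1.715 for all 11316, and the median read count 207.5 against 127.

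**Figure D4:**
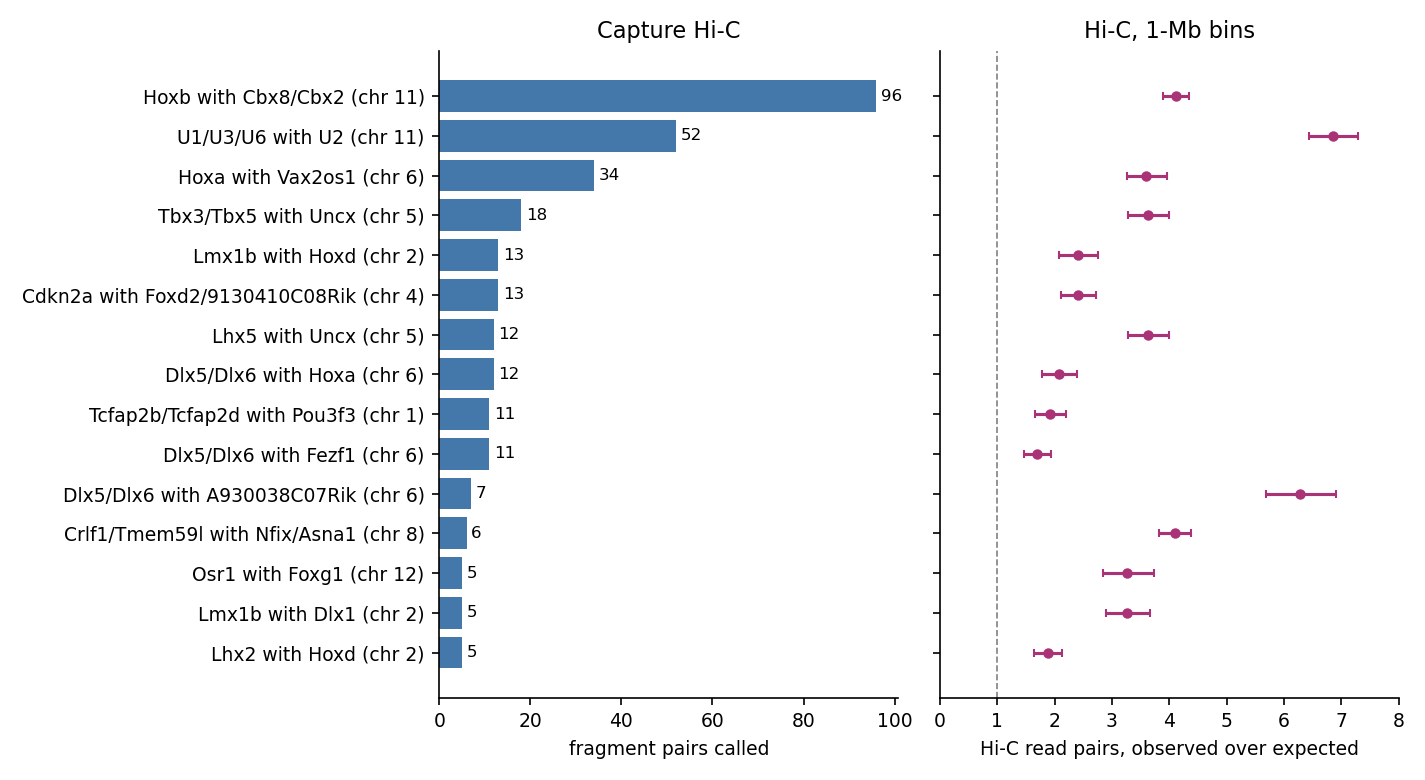
Left, number of fragment pairs called for 15 of the locus pairs with 5 or more. Right, Hi-C read pairs between the same 1-Mb bins, observed over expected, with 95% exact Poisson intervals that cover counting error only; the dashed line marks 1. The Hoxb and Cbx contact has 96 fragment pairs and a ratio of 4.113, and the ratios shown, all from bin pairs that passed the FDR, lie above 1.

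Chromosomes differed widely in the number of contacts. Chromosome 11 had 162 pairs, chromosome 6 had 83, chromosome 5 had 52, chromosome 1 had 48 and chromosome 2 had 43, together 72.8% of the set. On chromosome 11 the Hoxb and Cbx contact made up 59.26% of the pairs, and the contact of U1/U3/U6 and U2 genes held 52 of the 162. These contacts weigh heavily on its rank and on its number of pairs per bait. Relative to the number of baits with a call, the values were 101.3 pairs per 1000 baits on chromosome 11, 94.21 on chromosome 6 and 53.01 on chromosome 5, and 1.672 on chromosome 14. Chromosome X had none, with 399 baits with a call, so that up to 0.7519% of its baits could have had one. Hi-C covered 95.68% of the pairs on chromosome 11 and 90.36% on chromosome 6, but 35.29% on chromosome 9 and 26.67% on chromosome 13. No locus pair on chromosomes 9 and 13 held more than 3 fragment pairs. Coverage was 100% on chromosome 17, however, where each locus pair held 1.
The loci formed 41 connected networks, 21 of them of only 2 loci. The largest held 14 loci (chromosome 5), then 13 on chromosome 6 and 13 on chromosome 2. There were 14 triangles, on 8 chromosomes, and 100 of the 176 loci had a single partner locus.

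**Figure D5:**
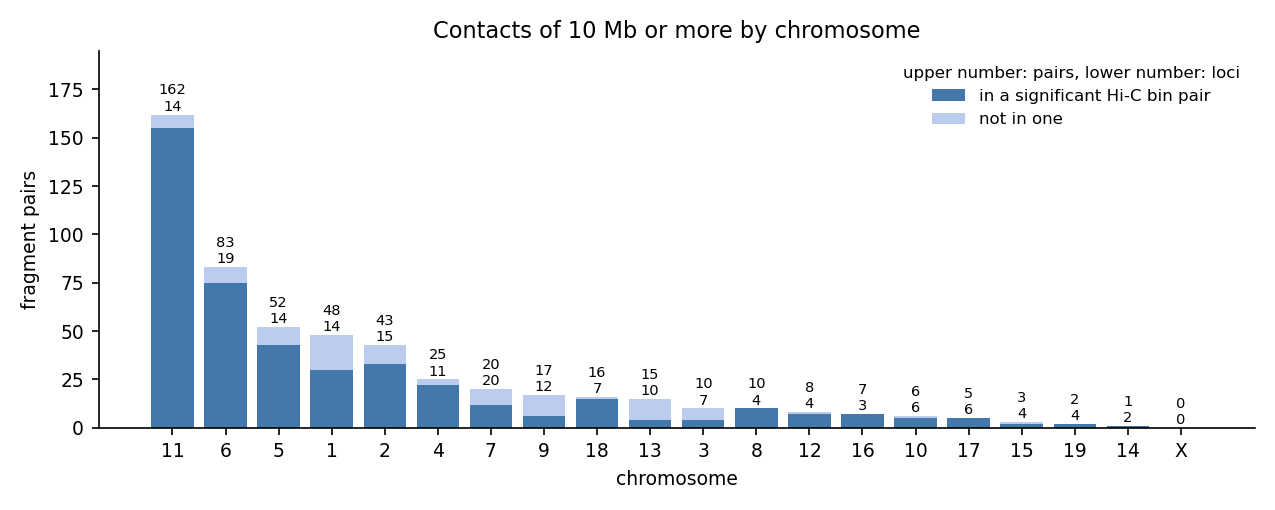
Number of fragment pairs of 10 Mb or more on each chromosome, split by whether they lie in a significant pair of 1-Mb Hi-C bins (dark) or not (light). Numbers above the bars give the pairs and the loci. Chromosome 11 leads with 162 pairs in 14 loci and chromosome X has 0.

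Bait-to-bait contacts made up 197 of the 533 pairs (36.96%, 32.97 to 41.14), close to the 37.52% (35.59 to 39.5) at 1 to 10 Mb and above the 31.07% (30.77 to 31.37) under 1 Mb and the 9.8% (7.589 to 12.57) in trans. Of the 197, 161 were called from both ends, or 81.73%. The 192 unbaited fragments were mostly close to a promoter in the set: 141 lay within 20 kb of a baited member. By annotation 35 of them overlapped a transcription start, 45 an exon, 51 an intron and 61 no gene. Baits with a contact of 10 Mb or more also had more contacts in the middle range, since 60.42% of them had a contact of 1 to 10 Mb, against 7.198% of all baits. A trans contact was listed for 6.25% of them, against 2.034% of all baits.

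Beyond 80 Mb there were 14 pairs. The 3 with a developmental list gene were 2 of Tbx3, with fragments near Msx1 (81.9 Mb) and RP24-276N7.2 (84.38 Mb), and Sox17 with Hjurp (85.69 Mb), each on 4 reads and each in a listed Hi-C bin pair. The 5 longest contacts had none. The longest contact, 118.9 Mb on chromosome 7, joined a fragment near Sult2a4, a sulphotransferase gene, to Spns1 on 4 reads with a score of 11.17. The next, 107.1 Mb on chromosome 13, joined U2.49 to a fragment near AC154816.1 on 10 reads with a score of 44.99. It was followed by 1810022K09Rik with a fragment near Rwdd3 on chromosome 3 (106.3 Mb, 3 reads) and by 6030429G01Rik with a fragment near a 7SK gene on chromosome 7 (97.92 Mb, 3 reads), whose ends share sequence. Pramef8/Pramel1, of a multicopy gene family, were paired with a fragment near Anp32b on chromosome 4 at 96.51 Mb (2 pairs). None of the 5 longest lay in a listed Hi-C bin pair, and 7 of the 14 pairs beyond 80 Mb did.

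At the threshold itself, the pair just inside spanned 10.21 Mb (4 reads, score 7.12) and the pair just outside was En2 with Msx1 on chromosome 5 (9.72 Mb, 4 reads, score 7.82). En2 and Msx1 are both homeobox genes.

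In GM12878, a human lymphoblastoid cell line assayed by the same method in 3 replicates, 99 fragment pairs spanned 10 Mb or more. Matched by symbol, 60 of the 197 mESC pairs of named genes had both genes in the GM12878 list. None of the 60 was called there at any distance, which allows a share of up to 5% by counting. This limit treats the gene pairs as independent and is too low where several of them join the same loci. Cell type, species, promoter design and depth all differ between the lists and cannot be told apart.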

How the data were processed

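Promoter CHi-C of mESCs (2 biological replicates) and Hi-C (1 library) were used, with the GM12878 list for a match by symbol. Per the labels and the study's methods, the authors mapped read pairs to mm9 with HiCUP (Bowtie 1.1.0), removed artefacts and duplicates, retained those that touched a bait, and called contacts with CHiCAGO at its defaults from the replicates together. The deposited read count is weighted over replicates and rounded, so it is not raw and no depth per sample follows from it. The deposited score is the authors' CHiCAGO score, listed from 5 upwards. For Hi-C, the authors called 1-Mb bin pairs with HOMER 4.7; the deposited count of read pairs is raw, the expected number is HOMER's, and the deposited FDR is a p-value adjusted by HOMER. In that list 5 other columns of values were not used.

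Distances are between fragment midpoints. All 432 fragments matched HindIII fragments of mm9 (NCBIM37), and GENCODE vM1 gave annotation. Transcript names were reduced to gene symbols, and a list gene counts by the name of the baited fragment. Loci join fragments under 500 kb apart. Python 3.11.15, SciPy 1.17.1, networkx 3.6.1, matplotlib 3.10.9, blastn 2.17.0 (shared stretches of at least 100 bp at 95% identity) and samtools 1.23.1 were used, and the steps were tested on simulated data. Shares have 95% Wilson intervals and Hi-C ratios exact Poisson intervals, both for counting error only. A share of 0 is given with the limit that 3 counts would set.

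The genes named are those at the 10 most connected fragments, the 10 locus pairs with most fragment pairs, the 10 highest scores and the 5 longest pairs, the most connected fragment of each chromosome, and up to 5 most connected members of each gene list. Some items that this rule names are not reported here. Other genes named are partners of these loci and were chosen after their values were seen. The members and lists were chosen with earlier results of these data known. The small nuclear RNA and AP-2 lists, the grouping of 9 lists as developmental and the promoters printed were chosen after the values were seen.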

Additional observations from a re-analysis of the deposited data

How the results depend on the processing

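No paired analysis was possible because the calls were made on both mESC replicates together; for the same reason neither replicate could be left out. Of 107 values under alternatives, 79 moved by less than their counting interval, or for counts by under 1.5 times, and 28 moved further. With a score of at least 10, 225 pairs, 194 fragments and 67 locus pairs remained, and with at least 5 reads 243, 201 and 70. Under these thresholds the bait-to-bait share became 43.56% and 44.44%, the share with a Hox gene 26.22% and 27.98%, the share in the first 10 locus pairs 65.78% and 66.26% and the share in a Hi-C bin pair 87.11% and 86.83%. With at least 5 reads, 58.85% of pairs had a developmental gene and 51.52% of Hox baits had a contact. Moving the distance threshold to 20 Mb gave 32.87% bait-to-bait, 28.45% with a Hox gene and 55.8% in the first 10 locus pairs, and 5 Mb gave 15.49% and 41.61% for the last 2. Counting calls as listed gave 51.59% bait-to-bait, since a pair called from both ends then counts again. Counting Hi-C bin pairs once gave 62.58%. Without chromosome 11, an alternative chosen after seeing the data, a Hox gene was at an end of 11.05% of pairs, another homeobox gene of 31.81% and a developmental gene of 58.22%, while 36.93% lay in the first 10 locus pairs and 76.28% in a Hi-C bin pair. The rank of a contact by read count is limited by depth, since most pairs rest on 3 or 4 reads.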
